A study of Mus musculus with 9 samples.

Results

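Ribosome biogenesis factors are the proteins that make ribosomal RNA, cut and modify it, fold it onto ribosomal proteins and carry the new subunits out of the nucleus. The results concern 38 of the 22524 genes counted in bone marrow-derived macrophages (BMDMs), taken from a list of mouse symbols that was drawn up with earlier results of these data known. All 38 were found in the count files, and all 38 passed the filter on low counts that left 11560 genes to be tested. They fall into 6 roles, namely 7 genes of RNA polymerase I (Pol I) and nucleolar transcription, 3 of the box C/D and 3 of the box H/ACA small nucleolar ribonucleoproteins (snoRNPs), 3 nucleolar chaperones, 9 small subunit factors and 13 large subunit factors.

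BMDMs are primary macrophages that grow out of mouse bone marrow in culture, here over 7 days, and every library was labelled C57BL/6. RNA was sequenced from 3 groups of 3 libraries. The groups are SRF knockout (SRF-KO) BMDMs given lipopolysaccharide (LPS) for 6 h, wild-type (WT) BMDMs given LPS for 6 h, and untreated WT BMDMs, which the sample titles call Control. SRF stands for serum response factor, which binds DNA and is known for switching on immediate-early genes and genes of the actin cytoskeleton, and LPS is the bacterial cell wall component that Toll-like receptor 4 detects. The sources used here do not give how Srf was deleted, or whether the libraries of a group stem from different mice or cultures. The p-values therefore reflect only how far these samples spread, and that spread may be technical. No SRF-KO library without LPS was analysed here, so the difference between SRF-KO and WT was measured in LPS-treated cells alone.

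In the nucleolus, Pol I transcribes a long precursor that carries the 18S, 5.8S and 28S ribosomal RNAs. Guided by small nucleolar RNAs, box C/D snoRNPs methylate riboses and box H/ACA snoRNPs turn uridines into pseudouridines, while separate sets of factors assemble the small and the large subunit. The pathway uses much of the energy of a growing cell, and macrophages multiply in growth factor and stop when they are strongly activated.

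Levels below are in CPM, the usual read count relative to library size, after TMM scaling, which uses a trimmed mean of log ratios between libraries. Differences were tested with the quasi-likelihood test of edgeR, and p-values were adjusted by Benjamini-Hochberg over all genes tested, with a threshold of 0.05. Total counts lay between 15321839 and 24912173 per library. TMM assumes that most genes do not change. TMM factors were 1.04 in SRF-KO with LPS, 0.810 to 0.814 in WT with LPS and 1.18 to 1.19 in untreated WT, so a scaling by library totals alone is given beside the results. The median log2 change over all genes in WT was -0.02 with TMM and -0.57 with library totals for LPS against untreated, and for SRF-KO against WT with LPS it was 0.01 and 0.37. Srf itself had 34, 24 and 12 reads in the SRF-KO libraries, against 738, 799 and 900 reads in WT with LPS. All 8 macrophage markers passed the filter, with summed levels of 24197 to 24422 CPM in SRF-KO with LPS, 22928 to 23416 CPM in WT with LPS and 16688 to 17212 CPM in untreated WT. Single markers differed in direction, with 5 of 8 lower and 3 higher in SRF-KO than in WT with LPS, a median log2 difference of -0.78 and the lowest at -4.46 in Fcgr1. Neutrophil markers, 3 of 7 of which passed the filter, summed to 18.6 to 20.4 CPM in SRF-KO with LPS, 6.21 to 7.33 CPM in WT with LPS and 1.60 to 2.20 CPM in untreated WT, and their part in the results was not tested. Markers of T and NK cells, B cells, dendritic cells, stromal and endothelial cells, erythroid cells and mast cells each summed to at most 9.35 CPM in any library. The Y-linked genes Uty, Ddx3y, Kdm5d and Eif2s3y had 0, 1, 1 and 4 reads over the 3 SRF-KO libraries, against 942, 2082, 806 and 2161 reads in WT with LPS. The genotype and this difference in Y-linked reads cannot be told apart.

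The transcripts of the ribosome biogenesis factors were lower in WT BMDMs after LPS and higher in SRF-KO than in WT BMDMs after LPS. By edgeR's test LPS lowered 36 of the 38 in WT and raised 0, and since the highest of the 38 log2 changes was -0.03, none was higher at an unadjusted p. DESeq2, fitted separately, also called none higher. Between the LPS-treated groups 34 were higher and 1 was lower in SRF-KO. Together the 38 genes summed to 2532, 2570 and 2603 CPM of the library total, a measure that does not use TMM, in SRF-KO with LPS, 1350, 1343 and 1349 in WT with LPS, and 3429, 3270 and 3330 in untreated WT. Every SRF-KO library lay above every WT library with LPS and below every untreated one. The sum in WT with LPS was 40.3% of the untreated one, and the sum in SRF-KO with LPS was 191% of that in WT with LPS and 76.8% of the untreated one. With TMM these values were 59.0%, 149% and 87.8%. In bulk RNA, fewer cells of a type and less RNA per cell cannot be told apart.

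**Figure D1:**
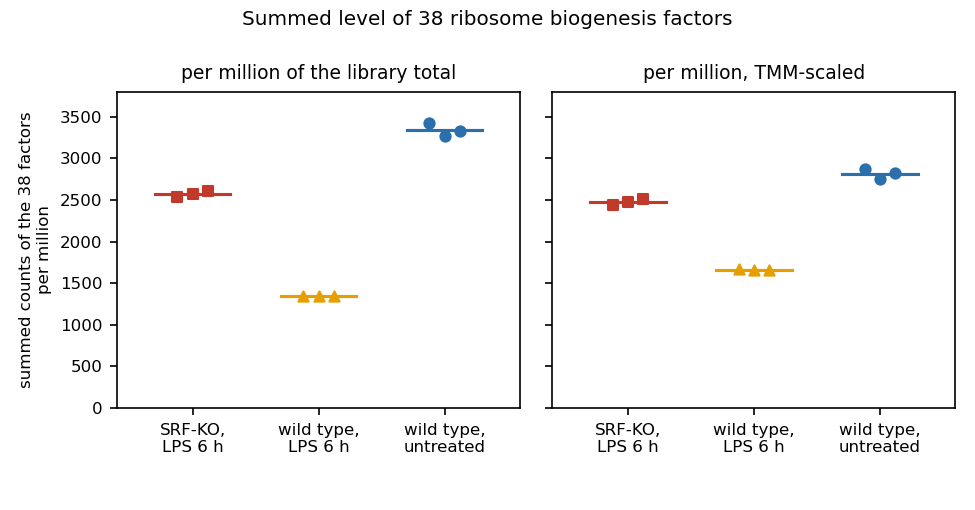
Summed CPM of the 38 ribosome biogenesis factors, on the y axis, in each of the 9 libraries, with a horizontal line at the mean of each group, on the left of the library total and on the right with TMM scaling. In both panels the 3 SRF-KO libraries with LPS lie between the 3 WT libraries with LPS and the 3 untreated WT libraries, with group means of 2568, 1348 and 3343 with library totals.

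The counts of called genes have to be read against a dataset in which most genes changed. Of all genes tested, LPS in WT raised 40.8% and lowered 40.8%, and 17.4% were lower by at least 2-fold. Among the 38, 36 were lower, 21 of them by at least 2-fold, and the median log2 change was -1.06. In 35 the 3 LPS libraries lay wholly below the 3 untreated ones, as 41.4% of all genes tested did. With library totals all 38 were lower, against 67.8% of all genes tested, and the median was -1.61. In SRF-KO against WT with LPS, 39.1% of all genes tested were higher, 37.9% lower and 13.9% higher by at least 2-fold. Of the 38, 34 were higher, 17 of them by at least 2-fold, and the median log2 change was 0.82. In 33 the SRF-KO libraries lay wholly above the WT libraries with LPS, as 39.7% of all genes tested did. With library totals 37 were higher, against 61.1% of all genes tested, Wdr43 did not pass, and the median was 1.18. Both comparisons use the same 3 WT libraries with LPS, so they are not independent of each other.

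Set against untreated WT, SRF-KO with LPS was lower in 26 of the 38 and higher in 7, with a median of -0.32. Of all genes tested, 40.1% were lower and 39.4% higher in this comparison. With library totals 31 were lower and 2 higher, against 52.3% and 29.8% of all genes tested. For 28 genes the mean level was highest in untreated WT, intermediate in SRF-KO with LPS and lowest in WT with LPS. Heatr1, Nhp2, Npm1, Ltv1, Bop1, Nop16 and Rrs1 were highest in SRF-KO with LPS and lowest in WT with LPS. Wdr43, Noc4l and Pes1 had their lowest mean in SRF-KO with LPS. Per kilobase of exon, which allows levels to be compared between genes, Npm1 was highest in every group, at 137, 98.2 and 111 CPM per kb in SRF-KO with LPS, WT with LPS and untreated WT. Wdr12 was lowest, at 1.32, 0.45 and 2.05 CPM per kb in the same groups, and the medians over the 38 were 8.91, 5.47 and 9.77 CPM per kb.

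**Figure D2:**
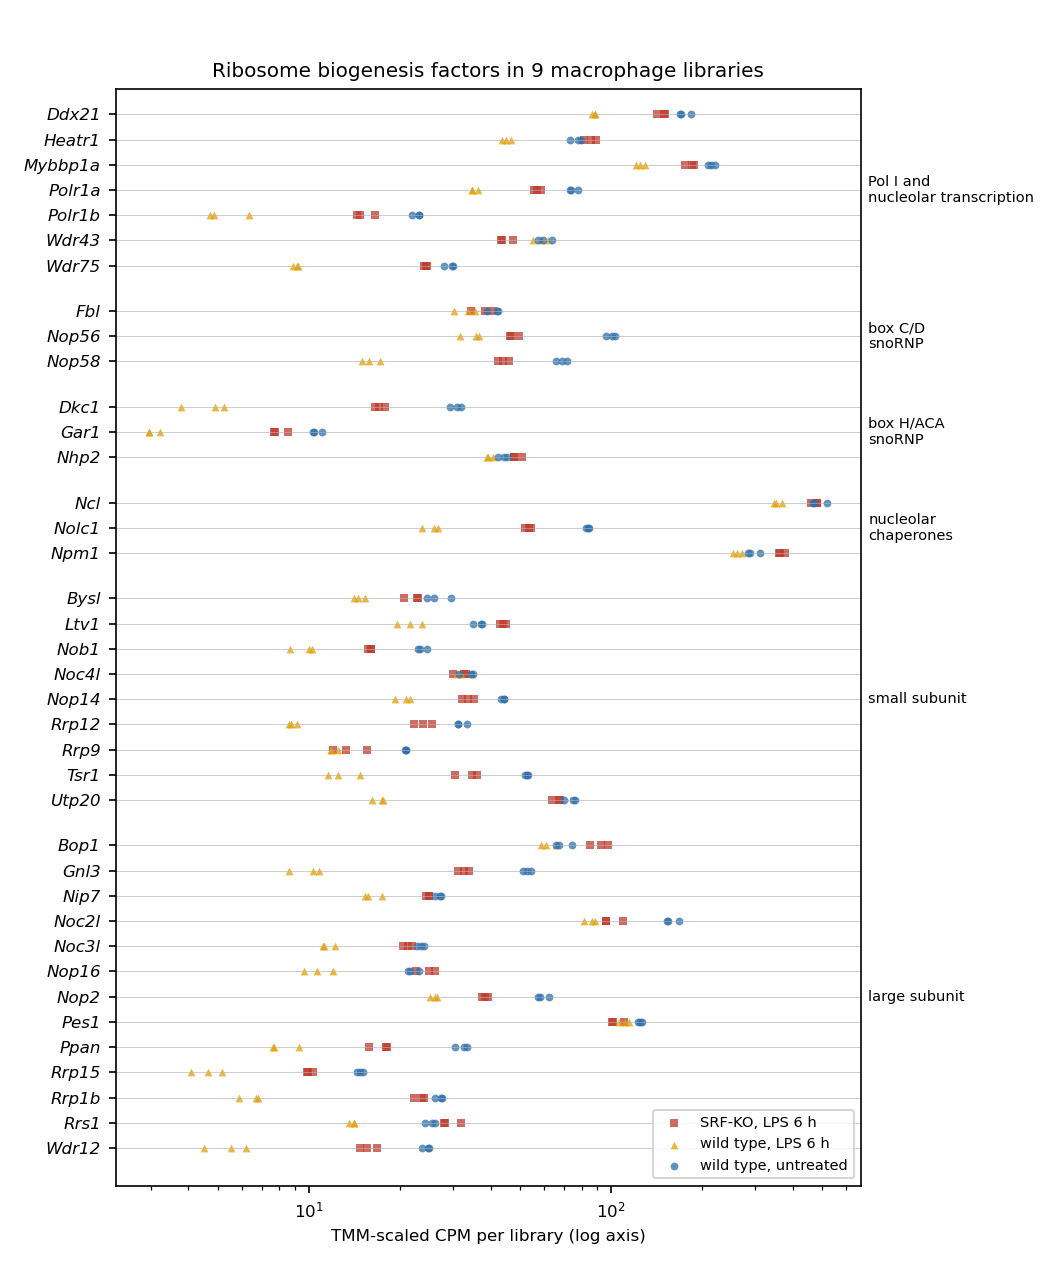
TMM-scaled CPM of each factor in each library on a log axis, with 1 row per gene, grouped by role, and 1 symbol per library. In 33 rows the SRF-KO libraries with LPS lie wholly to the right of the WT libraries with LPS, in Wdr43 they lie to the left, and in Noc4l all groups overlap.

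Promoter sequence was read for the factors because they moved together. RefSeq windows on GRCm38.p6, from 250 bases before to 50 bases after a transcription start, were at hand for 33 of the 38 genes, in 37 windows, without Fbl, Npm1, Rrp12, Bop1 and Rrs1. The E-box CACGTG, a palindrome that Myc and other basic helix-loop-helix factors are known to bind, was in 7 of the 37 windows, or 18.9%, against 9.99% of 11646 windows of tested genes and 7.15% of all 32851 windows. CCGGAAG, searched on both strands as an ETS-type motif, was in 13 windows, or 35.1%, against 18.2% and 8.86%. The CArG box, the motif bound by SRF, was in 0 of the 37 windows, against 1.23% and 1.63%. Some genes have more than 1 window, and these can overlap. Counted by gene, the E-box was in 7 of 33, or 21.2%, against 11.9% of tested genes with a window. CCGGAAG was in 12 of the 33, or 36.4%, against 21.3%. A match is a string of letters in a window, not a bound site. The 7 E-box matches are shown in 30 bases each, 5′ to 3′ on the strand of the gene, with the E-box in capitals.
Ltv1: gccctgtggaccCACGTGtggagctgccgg
Mybbp1a: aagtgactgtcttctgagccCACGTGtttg
Nop2: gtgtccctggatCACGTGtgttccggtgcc
Pes1: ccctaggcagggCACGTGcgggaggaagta
Tsr1: tcacttggtgcaCACGTGgactgcagaatg
Utp20: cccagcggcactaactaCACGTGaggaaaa
Wdr43: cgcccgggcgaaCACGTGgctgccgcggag
The stretches lie at chr10:13193092-13193121 on the minus strand for Ltv1, chr11:72441347-72441376 on the plus strand for Mybbp1a, chr6:125131811-125131840 on the plus strand for Nop2 and chr11:3963965-3963994 on the plus strand for Pes1. Those of Tsr1, Utp20 and Wdr43 lie at chr11:74898092-74898121 on the plus strand, chr10:88826765-88826794 on the minus strand and chr17:71616220-71616249 on the plus strand. The E-box began 60 bases before the start in Nop2 and after it in the other 6, at positions 29 in Ltv1, 41 in Mybbp1a, 3 in Pes1, 25 in Tsr1, 38 in Utp20 and 18 in Wdr43. These 7 genes held both the largest rise and the largest fall of the 38 in SRF-KO against WT with LPS, Utp20 and Wdr43. The log2 difference of Wdr43 was -0.39 with TMM but -0.04 with library totals, where it did not pass. Myc was at 22.2, 21.1 and 21.5 CPM in SRF-KO with LPS, 19.98, 18.7 and 19.5 CPM in WT with LPS and 44.4, 51.5 and 48.9 CPM in untreated WT. It fell by 1.32 on the log2 scale with LPS in WT (SE 0.0681, adjusted p = 6.01e-20). The log2 difference between SRF-KO and WT with LPS was 0.15 (SE 0.0750, adjusted p = 0.0601) with TMM, which did not pass, and 0.51 with library totals (adjusted p = 9.42e-08), which did. Whether Myc bears on the factors was not tested.

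Among the genes of Pol I and nucleolar transcription, LPS lowered 6 of 7 in WT, and the same 6 were higher in SRF-KO than in WT with LPS. With library totals 7 were lower and 6 higher. Over all genes tested, 40.8% were lower with LPS in WT and 39.1% higher in SRF-KO against WT with LPS. With library totals these shares were 67.8% and 61.1%. They apply to each role below, and the roles split a list drawn up with earlier results known. Polr1a (ENSMUSG00000049553, chr6:71909053-71984935), the largest Pol I subunit, averaged 57.2 ± 1.57 CPM in SRF-KO with LPS, 35.2 ± 0.896 CPM in WT with LPS and 75.04 ± 2.53 CPM in untreated WT (SD, n = 3 each). Polr1b, the second largest subunit, averaged 15.3 ± 1.19 CPM, 5.30 ± 0.921 CPM and 22.7 ± 0.674 CPM in the same groups. With LPS in WT, Polr1a kept 46.9% and Polr1b 23.1% of the untreated level.

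Ddx21, a nucleolar RNA helicase, was at 142, 151 and 150 CPM in SRF-KO with LPS, 86.3, 88.9 and 88.8 CPM in WT with LPS, and 184, 169 and 171 CPM in untreated WT. The 3 groups did not overlap. Its log2 change was -0.99 with LPS in WT (SE 0.0443, adjusted p = 6.3e-22) and 0.75 in SRF-KO against WT with LPS (SE 0.0445, adjusted p = 6.96e-18). Mybbp1a, a nucleolar protein tied to Pol I transcription, had a log2 change of -0.78 with LPS in WT and 0.55 in SRF-KO against WT with LPS, with the E-box shown above.

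Heatr1, Wdr43 and Wdr75 belong to the same subcomplex, which links transcription to the first cleavages of the precursor, and Heatr1 and Wdr75 were higher but Wdr43 lower in SRF-KO than in WT with LPS. Heatr1 was at 89.3, 85.6 and 81.4 CPM in SRF-KO with LPS, 45, 43.6 and 46.7 CPM in WT with LPS, and 79.4, 73.0 and 77.9 CPM in untreated WT. The WT libraries with LPS were lowest by a wide gap, and the SRF-KO libraries lay just above the untreated ones. Its log2 difference was 0.92 between SRF-KO and WT with LPS (SE 0.0527, adjusted p = 1.92e-18), and 0.16 between SRF-KO with LPS and untreated WT (SE 0.0473, adjusted p = 0.00318), which became -0.04 with library totals. Wdr75 kept 31.0% of its untreated level with LPS in WT, and SRF-KO with LPS held 269% of the level in WT with LPS.

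Wdr43 was the 1 factor that was lower in SRF-KO. It was at 43.3, 47.4 and 43.7 CPM in SRF-KO with LPS, 55.3, 58.8 and 62.1 CPM in WT with LPS, and 63.6, 57.6 and 59.4 CPM in untreated WT. Both WT groups overlapped, and all SRF-KO libraries lay below them. The log2 difference was -0.39 between SRF-KO and WT with LPS (SE 0.0566, adjusted p = 9.48e-08), but -0.04 with library totals (adjusted p = 0.563). With LPS in WT it was -0.03 (adjusted p = 0.592), which does not show that the level stayed the same, and with library totals it was -0.58.

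The snoRNP genes were lower with LPS in WT in 6 of 6 cases and higher in SRF-KO than in WT with LPS in 6 of 6. These counts were the same with library totals, and 40.8% and 39.1% of all genes tested were so called with TMM. Nop58, a core protein of box C/D snoRNPs, was at 42.2, 46.0 and 43.9 CPM in SRF-KO with LPS, 15.8, 17.2 and 15.1 CPM in WT with LPS, and 71.6, 65.9 and 69 CPM in untreated WT. The groups stood well apart, with WT with LPS lowest. The log2 change was -2.10 with LPS in WT (SE 0.0657, adjusted p = 4.22e-27) and 1.46 in SRF-KO against WT with LPS (SE 0.0686, adjusted p = 3.8e-21).

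Nop56, its paralogue in the particle, was at 46.6, 46.4 and 49.8 CPM in SRF-KO with LPS, 36.7, 35.7 and 31.7 CPM in WT with LPS, and 96.4, 103 and 101 CPM in untreated WT. Here the SRF-KO libraries lay close to WT with LPS and far from untreated WT. With LPS in SRF-KO it stood 1.08 log2 units under untreated WT (log2 difference -1.08, SE 0.0501, adjusted p = 2.5e-21), the largest fall of the 38 in that comparison. Fbl, fibrillarin, the methyltransferase of these particles, was at 38.3, 34.5 and 40.8 CPM in SRF-KO with LPS, 35.6, 33.7 and 30.2 CPM in WT with LPS, and 42.2, 38.9 and 41.9 CPM in untreated WT. The SRF-KO libraries overlapped both WT groups. Its log2 difference of 0.19 between SRF-KO and WT with LPS passed (SE 0.0674, adjusted p = 0.0115), but not without WT LPS replicate 3 (0.12, adjusted p = 0.14) or without SRF-KO LPS replicate 3 (0.14, adjusted p = 0.0808).

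Dkc1 (ENSMUSG00000031403, chrX:75095854-75109777), dyskerin, the pseudouridine synthase of box H/ACA snoRNPs, had the largest fall of the 38 with LPS in WT. It was at 16.6, 17.1 and 17.9 CPM in SRF-KO with LPS, 3.79, 4.91 and 5.24 CPM in WT with LPS, and 31.0, 31.9 and 29.4 CPM in untreated WT. The 3 groups were separate, with SRF-KO in between. The log2 change was -2.71 with LPS in WT (SE 0.0986, adjusted p = 6.38e-25) and 1.87 in SRF-KO against WT with LPS (SE 0.107, adjusted p = 1.89e-18). Dkc1 is on the X chromosome, and the SRF-KO libraries also differed from WT in Y-linked reads, whose part in the difference was not tested.

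Gar1, a partner of Dkc1 in the particle, kept 28.8% of its untreated level with LPS in WT. Nhp2, another partner that binds the RNA, was at 47.7, 47.7 and 50.6 CPM in SRF-KO with LPS, 40.8, 39.0 and 39.1 CPM in WT with LPS, and 44.4, 45.2 and 42.4 CPM in untreated WT. All 9 values lay in a narrow band, yet the groups did not overlap. The log2 change was -0.15 with LPS in WT (SE 0.0563, adjusted p = 0.0127) and 0.30 in SRF-KO against WT with LPS (SE 0.0553, adjusted p = 9.93e-06), and SRF-KO with LPS against untreated WT was 0.14 with TMM but -0.05 with library totals. The fall with LPS did not pass without WT untreated replicate 2 (-0.14, adjusted p = 0.0505).

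The 3 nucleolar chaperones were lower with LPS in WT and higher in SRF-KO than in WT with LPS, also with library totals. With TMM 40.8% and 39.1% of all genes tested were so called. Nolc1, which accompanies snoRNPs, was at 52.0, 53.5 and 54.4 CPM in SRF-KO with LPS, 26.8, 23.8 and 25.9 CPM in WT with LPS, and 84, 82.9 and 84.6 CPM in untreated WT. The spread within each group was small beside the gaps between them, with log2 changes of -1.72 with LPS in WT (SE 0.0562, adjusted p = 2e-26) and 1.06 in SRF-KO against WT with LPS (SE 0.0584, adjusted p = 5.57e-19). Ncl, nucleolin, was at 460, 480 and 480 CPM in SRF-KO with LPS, 347, 367 and 352 CPM in WT with LPS, and 519, 466 and 470 CPM in untreated WT. SRF-KO with LPS overlapped untreated WT, with a log2 difference of -0.04 that did not pass (SE 0.0402, adjusted p = 0.419). With library totals the SRF-KO libraries lay wholly below untreated WT, with a difference of -0.23 (adjusted p = 3.64e-06).

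Npm1, nucleophosmin, was at 360, 377 and 363 CPM in SRF-KO with LPS, 261, 271 and 253 CPM in WT with LPS, and 312, 289 and 284 CPM in untreated WT. SRF-KO was highest in every library. The log2 change was -0.17 with LPS in WT (SE 0.0407, adjusted p = 0.000237) and 0.49 in SRF-KO against WT with LPS (SE 0.0404, adjusted p = 1.36e-13), and SRF-KO with LPS was above untreated WT by 0.31 (SE 0.0396, adjusted p = 4.81e-09) with TMM and by 0.12 with library totals (adjusted p = 0.0061).

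Of the 9 small subunit factors, LPS lowered 8 in WT, and 7 were higher in SRF-KO than in WT with LPS. With library totals all 9 were lower and all 9 higher. The shares over all genes tested were 40.8% and 39.1% with TMM, and 67.8% and 61.1% with library totals. Utp20, a large scaffold protein of the small subunit processome, had the largest rise of the 38 in SRF-KO. It was at 63.6, 68.0 and 67.4 CPM in SRF-KO with LPS, 17.6, 16.2 and 17.5 CPM in WT with LPS, and 76.2, 69.9 and 74.9 CPM in untreated WT. SRF-KO with LPS came within a few CPM of untreated WT, while WT with LPS stood far below. The log2 change was -2.11 with LPS in WT (SE 0.0632, adjusted p = 1.1e-27) and 1.96 in SRF-KO against WT with LPS (SE 0.0636, adjusted p = 2.23e-26).

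Tsr1, Rrp12 and Nob1 act late on the small subunit precursor, Nob1 as the nuclease that makes the 3′ end of 18S ribosomal RNA. With LPS in WT they kept 24.4%, 27.6% and 40.9% of the untreated level, and in SRF-KO with LPS they held 263%, 270% and 165% of the level in WT with LPS. Bysl, the relative of yeast Enp1, and Nop14, a processome protein, moved less, with log2 changes of -0.87 and -1.09 with LPS in WT and 0.61 and 0.71 in SRF-KO against WT with LPS. Ltv1, which in yeast helps small subunit precursors leave the nucleus, was at 42.8, 43.8 and 45.1 CPM in SRF-KO with LPS, 23.7, 19.6 and 21.6 CPM in WT with LPS, and 37.4, 35 and 37.1 CPM in untreated WT. All SRF-KO libraries were above all untreated ones with TMM (log2 difference 0.27, SE 0.0573, adjusted p = 7.76e-05), and with library totals the difference was 0.07 (adjusted p = 0.245).

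Noc4l, which pairs with Nop14 in yeast, passed the test in none of the 3 comparisons with TMM and in all 3 with library totals. It was at 33.2, 32.6 and 30.1 CPM in SRF-KO with LPS, 30.9, 32.0 and 34.6 CPM in WT with LPS, and 31.6, 34.4 and 35 CPM in untreated WT, so all groups overlapped. Its log2 difference between SRF-KO and WT with LPS was -0.02 (SE 0.0646, adjusted p = 0.754) with TMM and 0.33 with library totals (adjusted p = 1.47e-05). With library totals it was -0.59 with LPS in WT (adjusted p = 9.87e-11) and -0.26 in SRF-KO with LPS against untreated WT (adjusted p = 0.000191). Rrp9, a protein of the U3 snoRNP, was at 15.6, 13.3 and 12.1 CPM in SRF-KO with LPS, 12.5, 11.8 and 11.8 CPM in WT with LPS, and 21, 21 and 20.8 CPM in untreated WT. The LPS-treated groups overlapped and both lay below untreated WT. The difference between SRF-KO and WT with LPS was 0.19 (SE 0.0938, adjusted p = 0.0611). With library totals it was 0.55 (adjusted p = 1.89e-06), and without SRF-KO LPS replicate 3 it was 0.26 and passed (adjusted p = 0.0145).

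All 13 large subunit factors were lower with LPS in WT, and 12 were higher in SRF-KO than in WT with LPS. With library totals all 13 were lower and all 13 higher. The shares over all genes tested were 40.8% and 39.1% with TMM, and 67.8% and 61.1% with library totals. Gnl3 (ENSMUSG00000042354, chr14:31012433-31019152), nucleostemin, a nucleolar GTP-binding protein of dividing cells, was at 31.3, 33.9 and 32.5 CPM in SRF-KO with LPS, 10.8, 10.4 and 8.60 CPM in WT with LPS, and 54.4, 51.2 and 52.8 CPM in untreated WT. No group came near another. Its log2 change was -2.42 with LPS in WT (SE 0.0762, adjusted p = 5.32e-27) and 1.73 in SRF-KO against WT with LPS (SE 0.0805, adjusted p = 3.08e-21).

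Bop1, Pes1 and Wdr12 form the PeBoW complex, which processes the precursor of the large subunit. Wdr12 averaged 15.7 ± 1.04 CPM in SRF-KO with LPS, 5.42 ± 0.853 CPM in WT with LPS and 24.5 ± 0.698 CPM in untreated WT (SD, n = 3 each), with log2 changes of -2.16 with LPS in WT and 1.52 in SRF-KO against WT with LPS. Bop1 was at 97.9, 85.2 and 92.5 CPM in SRF-KO with LPS, 61.2, 58.7 and 65.8 CPM in WT with LPS, and 65.6, 67.3 and 74.3 CPM in untreated WT. Both WT groups overlapped, and SRF-KO lay above them.

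For Bop1 the fall with LPS in WT was small (log2 change -0.16, SE 0.0575, adjusted p = 0.0136), and it did not pass without WT untreated replicate 3 (-0.10, adjusted p = 0.119) or without WT LPS replicate 2 (-0.12, adjusted p = 0.0925). SRF-KO with LPS exceeded untreated WT by 0.41 with TMM (SE 0.0529, adjusted p = 7.23e-09) and by 0.22 with library totals, the largest rise of the 38 in that comparison. Pes1 was at 101, 102 and 110 CPM in SRF-KO with LPS, 111, 107 and 115 CPM in WT with LPS, and 123, 125 and 127 CPM in untreated WT. Both LPS-treated groups overlapped and lay under untreated WT. The log2 difference of -0.09 between SRF-KO and WT with LPS did not pass (SE 0.0446, adjusted p = 0.0607), and with library totals it was 0.26 and passed (adjusted p = 1.55e-06).

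Rrp1b, a nucleolar protein, kept 23.8% of its untreated level with LPS in WT, and SRF-KO with LPS held 364% of the level in WT with LPS. Ppan, the relative of yeast Ssf1, and Rrp15, named for its yeast counterpart, kept 25.3% and 31.2% with LPS in WT. Nop2, which methylates the large ribosomal RNA, kept 43.9%. Noc2l, which in yeast partners Noc3, had log2 changes of -0.89 with LPS in WT and 0.23 in SRF-KO against WT with LPS, and so stayed nearer to WT with LPS than to untreated WT.

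Noc3l was at 21.4, 22.0 and 20.6 CPM in SRF-KO with LPS, 12.2, 11.3 and 11.1 CPM in WT with LPS, and 22.8, 23.6 and 24 CPM in untreated WT. Nip7, which in yeast acts on the large subunit, was at 25.1, 24.5 and 25.0 CPM in SRF-KO with LPS, 15.4, 15.8 and 17.5 CPM in WT with LPS, and 27.4, 26.1 and 27.2 CPM in untreated WT. In both genes SRF-KO with LPS lay just under untreated WT in every library, but the log2 differences of -0.14 and -0.11 did not pass with TMM (adjusted p = 0.0628 and 0.0976). With library totals both passed, at -0.33 for Noc3l (adjusted p = 3.06e-05) and -0.31 for Nip7 (adjusted p = 4.19e-05). Nop16, known from yeast large subunit precursors, was at 26.2, 22.6 and 25.0 CPM in SRF-KO with LPS, 12, 9.68 and 10.7 CPM in WT with LPS, and 21.3, 23.2 and 21.6 CPM in untreated WT. SRF-KO overlapped untreated WT, with a difference of 0.16 with TMM (SE 0.0717, adjusted p = 0.0455) and -0.04 with library totals. This call was also lost with DESeq2 (adjusted p = 0.086), with no low-count filter (adjusted p = 0.06) and without any 1 of WT untreated replicates 1 and 3, WT LPS replicate 3 and SRF-KO LPS replicates 1 and 3 (adjusted p between 0.0519 and 0.219). Rrs1, which in yeast helps to bring in the 5S ribosomal RNA, was at 28.1, 28.3 and 31.8 CPM in SRF-KO with LPS, 13.6, 14.1 and 14.1 CPM in WT with LPS, and 26.2, 24.2 and 25.6 CPM in untreated WT. Its SRF-KO libraries lay just above the untreated ones (0.21, SE 0.0645, adjusted p = 0.00362), a difference of 0.02 with library totals.

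**Figure D3:**
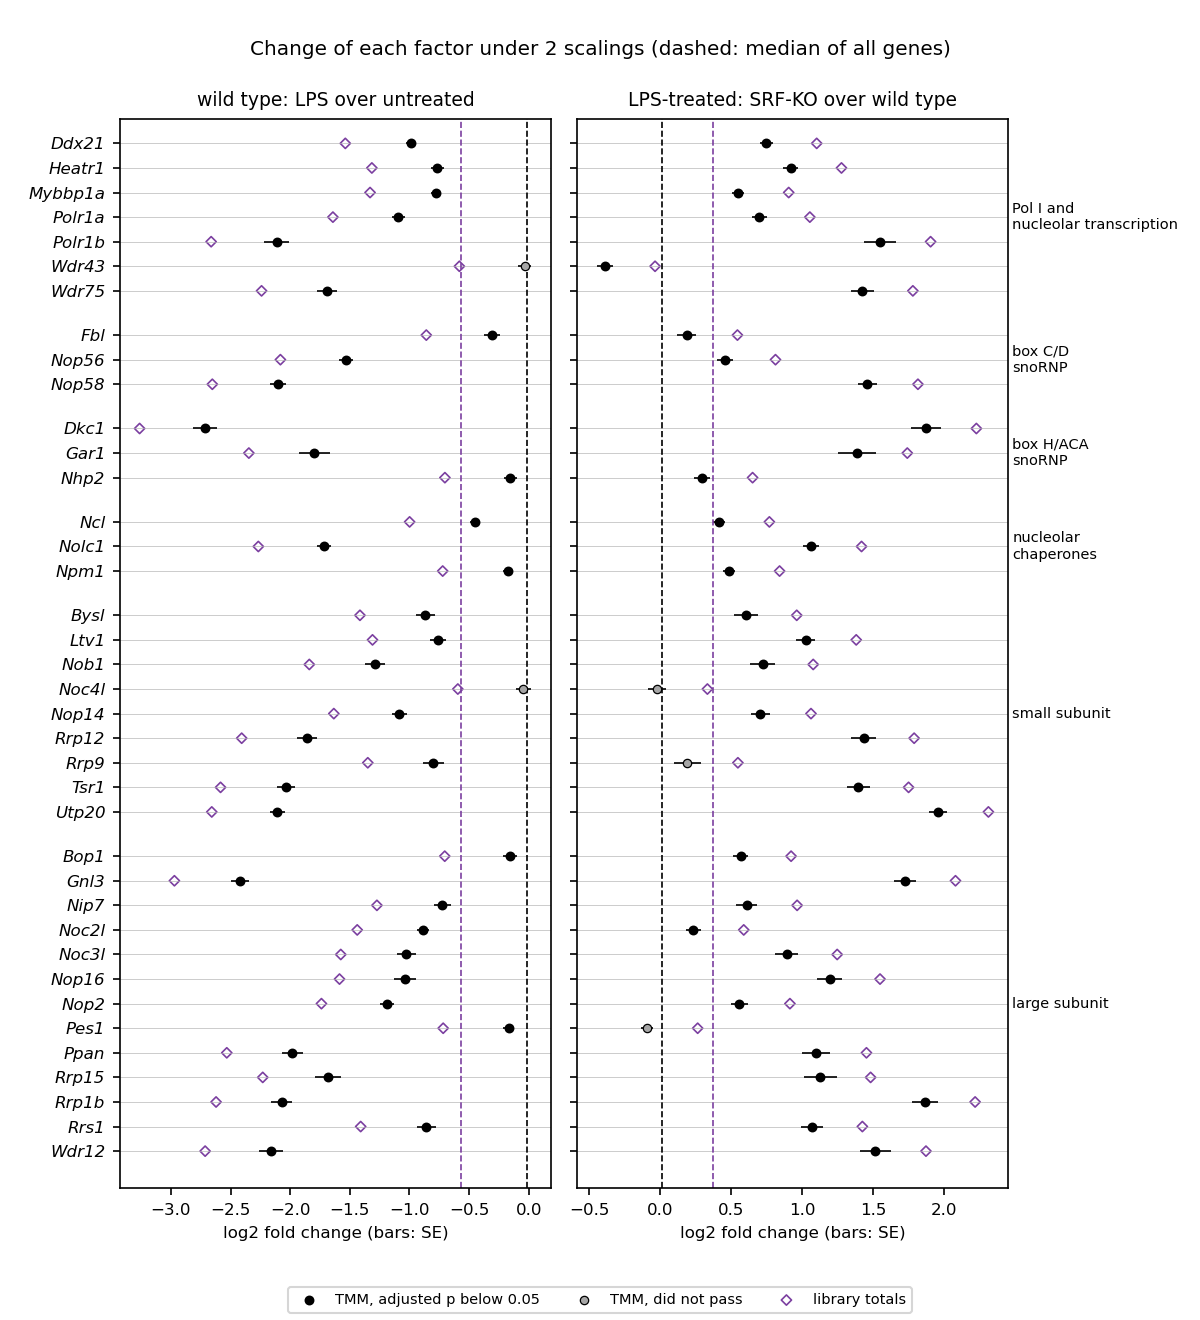
Log2 fold change of each factor with LPS in WT (left) and in SRF-KO against WT with LPS (right), with SE bars, as circles for TMM (grey where the test was not passed) and diamonds for library totals. Dashed lines mark the median over all genes, -0.02 and -0.57 on the left and 0.01 and 0.37 on the right; 36 circles on the left are called lower and 34 on the right higher, and Noc4l and Pes1 change sign on the right with library totals.

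Ratios of reads of 2 genes within a library do not depend on how libraries are scaled. The pairs below were chosen after the values were seen, carry no test, and are not corrected for gene length. The ratio of Dkc1 to Nhp2 reads was 0.349, 0.359 and 0.354 in SRF-KO with LPS, 0.0929, 0.126 and 0.134 in WT with LPS, and 0.697, 0.707 and 0.693 in untreated WT. SRF-KO lay between the WT groups, and no group overlapped another. For Nop58 to Fbl the ratios were 1.10, 1.33 and 1.08 in SRF-KO with LPS, 0.443, 0.511 and 0.499 in WT with LPS, and 1.70, 1.70 and 1.65 in untreated WT. For Wdr12 to Pes1 they were 0.146, 0.153 and 0.153 in SRF-KO with LPS, 0.0406, 0.0519 and 0.0540 in WT with LPS, and 0.193, 0.201 and 0.196 in untreated WT. In each of these pairs the ratio was lowest in WT with LPS, and SRF-KO stood between the WT groups.

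The ratio of Bop1 to Pes1 reads was 0.968, 0.839 and 0.840 in SRF-KO with LPS, 0.550, 0.551 and 0.572 in WT with LPS, and 0.534, 0.540 and 0.586 in untreated WT, so both WT groups overlapped under SRF-KO. The ratio of Wdr75 to Wdr43 was 0.556, 0.521 and 0.561 in SRF-KO with LPS, 0.166, 0.150 and 0.149 in WT with LPS, and 0.470, 0.522 and 0.473 in untreated WT, where SRF-KO and untreated WT overlapped. As for the 3 pairs above, SRF-KO lay between the WT groups for Nop56 to Fbl, whose ratio was between 1.22 and 1.34 in SRF-KO with LPS and between 1.03 and 1.06 in WT with LPS, and was 2.29 to 2.65 in untreated WT. The same held for Gar1 to Nhp2 and for Nop14 to Noc4l. For Noc3l to Noc2l SRF-KO (0.187 to 0.229) lay above WT with LPS (0.128 to 0.139) and untreated WT (0.143 to 0.154). For Polr1b to Polr1a SRF-KO (0.245 to 0.292) overlapped untreated WT (0.282 to 0.316), and WT with LPS was lower (0.136 to 0.176).

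**Figure D4:**
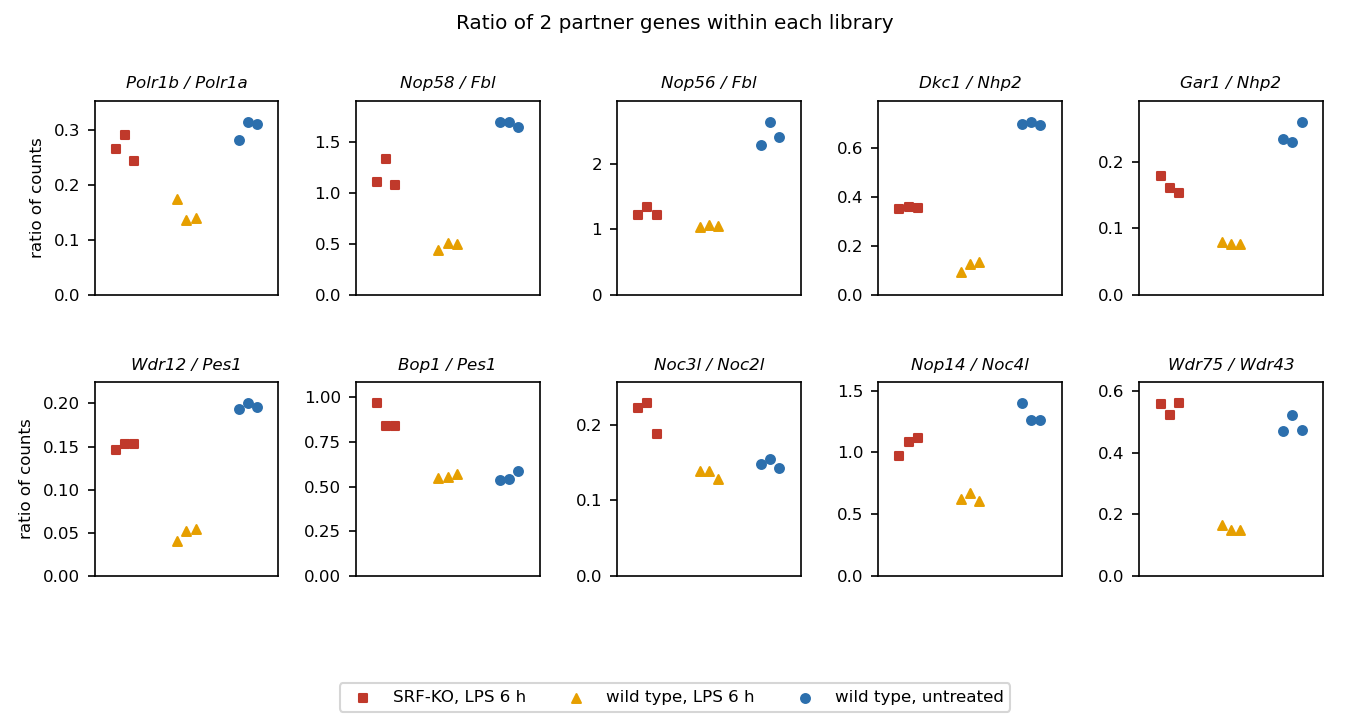
Ratio of the read counts of 2 genes whose products are partners, 1 panel per pair and 1 point per library, with each y axis starting at 0. SRF-KO with LPS lies between both WT groups for Dkc1 to Nhp2 (0.349 to 0.359) and above both for Bop1 to Pes1 (0.839 to 0.968).

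Some of the genes have further features in common, whose share over all genes was not counted. In the GENCODE mouse release 21 annotation, 8 of the 38 carry snoRNA genes within them, with 5 in Nop56, 4 in Nop58, 3 each in Gnl3, Ncl and Wdr43, 2 each in Ppan and Tsr1, and 1 in Dkc1. Of these 8, Dkc1, Gnl3 and Nop58 had the largest falls of their role with LPS in WT, and Wdr43 did not pass. The largest falls of the other roles were in Polr1b, Nolc1 and Utp20, which carry no snoRNA gene. A link between the feature and the falls was not tested. The snoRNA genes themselves are not analysed here. A protein-coding gene on the opposite strand overlaps 14 of the 38, among them Mpp1 at Dkc1, Mroh1 at Bop1, Pbrm1 at Gnl3, Idh3b at Nop56, Lgals8 at Heatr1, Parp3 at Rrp9 and Ccnd3 at Bysl. Summed over all libraries, Mpp1 had 43733 reads and Mroh1 14378. In single libraries Dkc1 had 47 to 667 reads and Bop1 759 to 2202. Whether counting used the strand is not stated, so reads of these pairs cannot be told apart with certainty.

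Pooled over 6 lists, 133 further genes of the pathway had medians of the same sign as the 38 and nearer to 0 with LPS in WT and in SRF-KO against WT with LPS. In SRF-KO with LPS against untreated WT their median was near that of all genes tested. Single lists could differ in sign with TMM. The median of other Pol I machinery was -0.10 in SRF-KO against WT with LPS. That of other small subunit factors was 0.007 in SRF-KO with LPS against untreated WT. With LPS in WT 84 of the 133 were lower and 25 higher, with a median of -0.36, against -1.06 for the 38. In SRF-KO against WT with LPS 85 were higher and 28 lower, with a median of 0.35, against 0.82 for the 38. Set against untreated WT, SRF-KO with LPS was higher in 36 and lower in 49, with a median of -0.04, against -0.01 over all genes tested. With library totals 117 were lower and 8 higher with LPS in WT (median -0.91), 113 higher and 5 lower in SRF-KO against WT with LPS (median 0.71), and 19 higher and 88 lower in SRF-KO with LPS against untreated WT (median -0.23). These counts and those of each list below stand beside the shares over all genes tested. With LPS in WT 40.8% were lower with TMM and 67.8% with library totals. In SRF-KO with LPS against untreated WT 40.1% were lower and 39.4% higher with TMM, in both directions a larger share than among the 133. With library totals 52.3% were lower and 29.8% higher there, with a median of -0.20 over all genes tested. In SRF-KO against WT with LPS 39.1% were higher with TMM and 61.1% with library totals.

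Of 15 other genes of the Pol I machinery, 8 were lower and 3 higher with LPS in WT, and 7 were higher and 7 lower in SRF-KO against WT with LPS. With library totals the counts were 12 lower and 1 higher, and 9 higher and 1 lower. The 9 of 15 higher in SRF-KO were near the 61.1% of all genes tested. Its median was -0.32 with LPS in WT. In SRF-KO against WT with LPS it was -0.10 with TMM and 0.25 with library totals. Taf1d, a subunit of the Pol I selectivity factor, averaged 15 ± 1.45 CPM in SRF-KO with LPS, 7.15 ± 0.401 CPM in WT with LPS and 16.2 ± 1.11 CPM in untreated WT. Znrd1, a small Pol I subunit, ran the other way, at 10.2 ± 0.851 CPM, 19.9 ± 0.747 CPM and 11.8 ± 0.312 CPM in the same groups (SD, n = 3 each).

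Of 42 other small subunit factors tested, LPS in WT lowered 27 and raised 8, and 30 were higher and 8 lower in SRF-KO than in WT with LPS, with medians of -0.42 and 0.48. With library totals the counts were 36 lower and 3 higher, and 36 higher and 2 lower. Nat10, which acetylates 18S ribosomal RNA, fell by 2.16 on the log2 scale with LPS in WT and was 1.64 higher in SRF-KO than in WT with LPS. Rcl1, a processome protein, went against the list, at 65.6 ± 1.64 CPM in SRF-KO with LPS, 67.8 ± 2.70 CPM in WT with LPS and 11.2 ± 0.956 CPM in untreated WT (SD, n = 3 each). It rose by 2.59 with LPS in WT (SE 0.0663, adjusted p = 5.53e-30). Of 39 other large subunit factors, LPS in WT lowered 28 and raised 8, and 28 were higher and 6 lower in SRF-KO than in WT with LPS, with medians of -0.45 and 0.38. With library totals LPS in WT lowered 38 and raised 1, and 37 were higher in SRF-KO. Mdn1, the giant ATPase that strips factors from large subunit precursors, averaged 99.5 ± 2.03 CPM in SRF-KO with LPS, 24.9 ± 0.355 CPM in WT with LPS and 92.8 ± 1.96 CPM in untreated WT (SD, n = 3 each).

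Among 10 other snoRNP factors, 7 were lower and 1 higher with LPS in WT, and 6 were higher and 1 lower in SRF-KO than in WT with LPS, with medians of -0.32 and 0.25. With library totals 9 were lower with LPS in WT and 9 higher in SRF-KO. Shq1, a chaperone of dyskerin, fell by 1.61 with LPS in WT and was 1.36 higher in SRF-KO than in WT with LPS, both on the log2 scale. The RNA exosome, which trims precursors, had 7 of 13 genes lower and 1 higher with LPS in WT, and 7 higher and 2 lower in SRF-KO than in WT with LPS, with medians of -0.23 and 0.35. With library totals 12 were lower with LPS in WT and 11 higher in SRF-KO. Dis3, its nuclease, averaged 21.3 ± 0.318 CPM in SRF-KO with LPS, 10.4 ± 0.752 CPM in WT with LPS and 28.4 ± 1.19 CPM in untreated WT (SD, n = 3 each). Of 14 genes of export and cytoplasmic maturation, 7 were lower and 4 higher with LPS in WT, and 7 were higher and 4 lower in SRF-KO than in WT with LPS, with medians of -0.13 and 0.09. With library totals 10 were lower and 3 higher with LPS in WT, and 11 higher and 2 lower in SRF-KO. The 10 of 14 lower with LPS in WT were near the 67.8% of all genes tested. Sbds, which releases Eif6 from large subunits, was at 56.2 ± 0.130 CPM in SRF-KO with LPS, 112 ± 0.331 CPM in WT with LPS and 44.3 ± 1.55 CPM in untreated WT (SD, n = 3 each), the reverse of most factors.

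Ribosomal protein genes encode the proteins that the factors assemble with ribosomal RNA. Of 79 tested, 60 were higher and 4 lower with LPS in WT with TMM, with a median of 0.16, whereas with library totals 1 was higher and 75 lower, with a median of -0.39. In SRF-KO against WT with LPS 7 were higher and 52 lower with TMM, with a median of -0.14, and 57 higher and 4 lower with library totals, with a median of 0.22. The direction of the ribosomal protein genes thus turns with the scaling. The median of the 38 factors lies below that of the ribosomal protein genes with LPS in WT, and above it in SRF-KO against WT with LPS. A change of scaling shifts all genes by nearly the same amount, so it cannot turn this order, and the order is no check on the scaling.

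With LPS in WT and in SRF-KO against WT with LPS, cell cycle genes moved in the direction of most factors and by more. All 18 were lower with LPS in WT, with a median log2 change of -2.82, and 16 were higher and 2 lower in SRF-KO than in WT with LPS, with a median of 3.34. Their summed level was 1703 to 1757 CPM in SRF-KO with LPS, 376 to 382 CPM in WT with LPS and 1851 to 1925 CPM in untreated WT. With library totals all 18 were lower with LPS in WT, with a median of -3.37. In SRF-KO against WT with LPS library totals gave 17 higher and 1 lower, with a median of 3.70. Against untreated WT, SRF-KO with LPS was higher in 11 and lower in 7 under both scalings. The medians were 0.56 with TMM and 0.36 with library totals, where those of the 38 factors were -0.32 and -0.52. Top2a, a topoisomerase of dividing cells, averaged 311 ± 3.52 CPM in SRF-KO with LPS, 24 ± 1.52 CPM in WT with LPS and 169 ± 10.5 CPM in untreated WT (SD, n = 3 each). The part of cell division in the differences of the 38 factors was not tested.

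**Figure D5:**
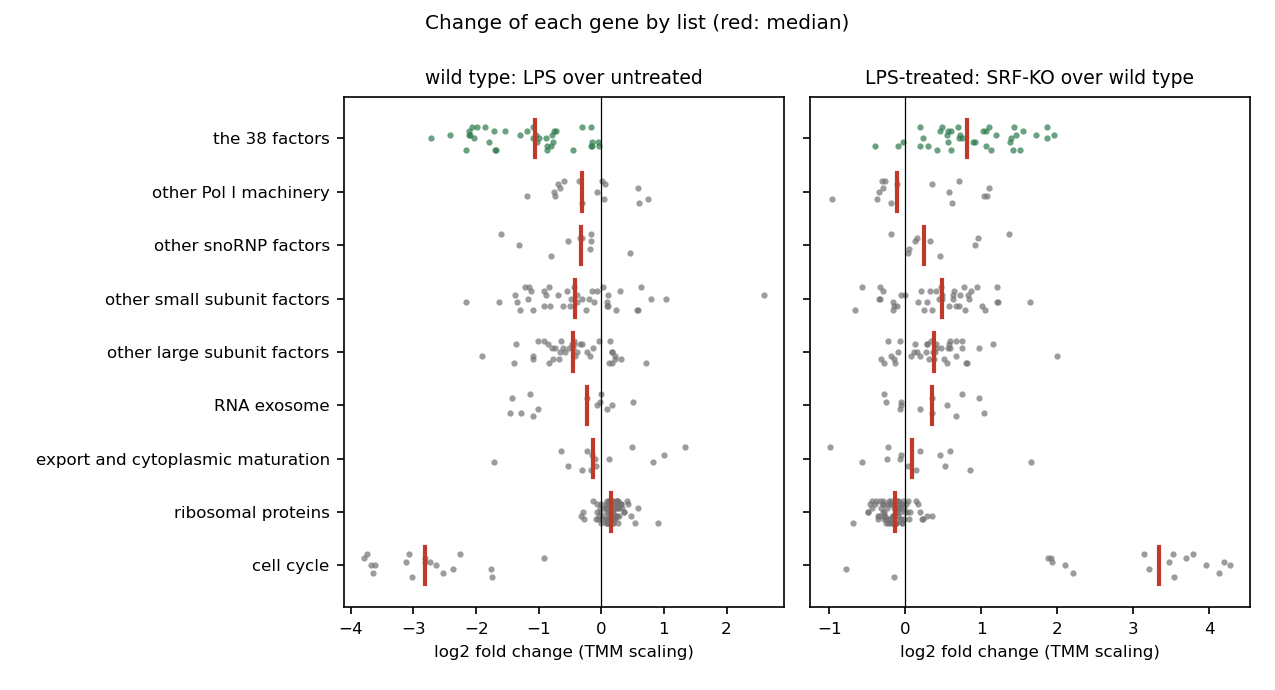
Log2 fold change (TMM scaling) of each tested gene, 1 point per gene and 1 row per list, with LPS in WT on the left and in SRF-KO against WT with LPS on the right; a red line marks the median of each list. The 38 factors have medians of -1.06 and 0.82, the ribosomal protein genes 0.16 and -0.14, signs that turn to -0.39 and 0.22 with library totals, and the cell cycle genes -2.82 and 3.34.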

How the data were processed

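Per the submitters' processing notes, the tools were bcl2fastq 2.19, Trimmomatic, STAR 2.5.4b, featureCounts and edgeR, on GRCm38, and per the labels libraries were stranded TruSeq. The sources used here do not give options, annotation release or strand setting. The deposited values are raw read counts, whole numbers, for 22524 Ensembl genes in each library. Symbols were matched for 22214 of them, and 310 had none. Gene coordinates are from GENCODE mouse release 21.

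Titles gave each library its group and replicate number. The fits used edgeR 4.0.16 and limma 3.58.1 under R 4.3.3. Genes were kept by filterByExpr, leaving 11560, and all 9 libraries entered 1 robust quasi-likelihood fit (glmQLFit, glmQLFTest) with TMM factors and 1 mean per group. It gave 3 contrasts: LPS in WT, SRF-KO against WT (both with LPS) and LPS-treated SRF-KO against untreated WT. Fold changes are unshrunk and SEs come from the F statistic. The common biological coefficient of variation was 3.46%, and replicate pairs differed beyond sampling noise (chi-square per degree of freedom 1.75 to 3.95). The code was tested on simulated data in which few genes changed, as many up as down. That setting meets the assumption of TMM, so it does not bear on the choice of scaling here. DESeq2 1.42.0, other scalings, no filter, the 2 groups alone, a replicate block and leaving out each library were alternatives.

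The members, the lists (6 of the pathway, ribosomal proteins, cell cycle, Myc network, p53 targets, cell type markers) and the rule for named genes were chosen with earlier results of these data known. All 38 members could be named. Values in every library went to the smallest p of each role and comparison, members that did not pass or had another order, and extremes; up to 3 genes of other lists were named by p per comparison, and Srf, Myc and Y-linked genes as checks. Tsr1, Polr1a, Polr1b, Wdr12 and the others are given by means or fold changes. Lists get no p-value.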

Additional observations from a re-analysis of the deposited data

How the results depend on the processing

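Scaling by library totals moved the median log2 change of the 38 factors to -1.61 with LPS in WT, 1.18 in SRF-KO against WT with LPS and -0.52 in SRF-KO with LPS against untreated WT. It left 0 factors lower in SRF-KO against WT with LPS and 2 higher in SRF-KO with LPS against untreated WT. It turned the signs of Noc4l (0.33) and Pes1 (0.26) in SRF-KO against WT with LPS, and of Heatr1 (-0.0375), Nhp2 (-0.0514) and Nop16 (-0.0371) in SRF-KO with LPS against untreated WT. The factors lower in SRF-KO against WT with LPS numbered 2 with median-of-ratios size factors, 2 with the replicate block and 1 to 2 when each library was left out. The addition to Wdr43 was Pes1, which passed without WT LPS replicate 2 (-0.12) and without SRF-KO LPS replicate 3 (-0.13). Over the libraries left out in turn, Wdr43 with LPS in WT ranged from -0.0761 to 0.00961, Noc4l in SRF-KO against WT with LPS from -0.0568 to 0.0272, and Ncl in SRF-KO with LPS against untreated WT from -0.0655 to 0.0151. Without the 100 genes with the most counts, the summed CPM of the library total was 3384 in SRF-KO with LPS, 1810 in WT with LPS and 4343 in untreated WT. Same-numbered libraries correlated between -0.0746 and 0.0971 in their deviations from group means, so the numbers were not treated as pairs, and the replicate block left the medians at -1.06, 0.82 and -0.32. Over all single factors and alternatives, 1666 values kept their direction and side of the threshold and 10 changed sign. Of the values that kept their sign, 17 lost the call and 17 gained one. Some sign changes with library totals also changed the call. Heatr1, Nhp2 and Nop16 lost it in SRF-KO with LPS against untreated WT, and Noc4l and Pes1 gained it in SRF-KO against WT with LPS. The cause of these changes was not tested. The lowest count of a factor in a library was 40, in WT with LPS.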

Other observations

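The Myc network, the partners and antagonists of Myc at E-boxes, did not move as 1 block. With LPS in WT 6 of 11 tested genes were higher and 5 lower, and in SRF-KO against WT with LPS 5 were higher and 3 lower, with medians of 0.65 and 0.15. With library totals 5 were higher and 5 lower with LPS in WT, and 8 higher and 3 lower in SRF-KO against WT with LPS, with medians of 0.10 and 0.51. Over all genes tested, TMM gave 40.8% higher and 40.8% lower with LPS in WT. In SRF-KO against WT with LPS 39.1% were higher with TMM and 61.1% with library totals. Mxd1, a Max partner that represses, averaged 42.9 ± 1.93 CPM in SRF-KO with LPS, 236 ± 3.37 CPM in WT with LPS and 12.7 ± 0.149 CPM in untreated WT (SD, n = 3 each). By edgeR's quasi-likelihood test it rose by 4.22 on the log2 scale with LPS in WT (SE 0.0542, adjusted p = 7.95e-40), and in SRF-KO it was lower than in WT with LPS (-2.46, SE 0.0451, adjusted p = 1.78e-34). Max, the shared partner, averaged 78.7 ± 1.59 CPM in SRF-KO with LPS, 184 ± 5.76 CPM in WT with LPS and 65.6 ± 1.56 CPM in untreated WT. Mxi1, another repressing partner, had the highest mean in SRF-KO, at 61.9 ± 0.340 CPM in SRF-KO with LPS, 26.1 ± 1.74 CPM in WT with LPS and 16.3 ± 0.708 CPM in untreated WT. Whether these genes bear on the ribosome biogenesis factors was not tested.

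Disturbed ribosome assembly is known to stabilise p53, so a short list of its targets was read as well. With LPS in WT 3 of 9 tested targets were higher and 4 lower, and in SRF-KO against WT with LPS 6 were lower and the other 3 did not pass, whereas with library totals 3 were higher and 5 lower. For LPS in WT library totals gave 1 higher and 7 lower. Over all genes tested, TMM gave 40.8% higher and 40.8% lower with LPS in WT, and 37.9% lower in SRF-KO against WT with LPS. Library totals gave 67.8% lower with LPS in WT. The medians were -0.15 and -0.52 with TMM, and -0.70 and -0.16 with library totals. Cdkn1a, the cell cycle inhibitor p21, averaged 493 ± 22.8 CPM in SRF-KO with LPS, 1181 ± 22.8 CPM in WT with LPS and 338 ± 19.3 CPM in untreated WT (SD, n = 3 each). Phlda3, an inhibitor of Akt, averaged 2.38 ± 0.562 CPM in SRF-KO with LPS, 10.2 ± 0.675 CPM in WT with LPS and 13.4 ± 0.748 CPM in untreated WT. Cdkn1a is also induced without p53, and transcript levels do not measure p53 itself.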
